A study of Danio rerio with 6 samples.

Results

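Red blood cells carry oxygen on haem, and 10 zebrafish genes for making haem and building the red cell were followed here in embryos with neuronal EWSR1-ERG. The genes were taken by symbol from the deposited count tables: the haem enzyme genes alas2, urod and fech, the membrane genes slc4a1a, epb41b and sptb, the red cell enzyme genes cahz and nt5c2l1, the transferrin receptor gene tfr1a and the transcription factor gene gata1a. Each symbol stood on 1 row, so 10 of the 31452 genes listed were used, and globin genes were left out. Marker genes of red cells (alas2, slc4a1a, cahz, gata1a and the hemogen gene) had counts in every library. The hemogen gene is not among the 10 and was not called, as given below.

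RNA was sequenced from whole zebrafish embryos at 3 days post fertilisation, with 15 embryos pooled for each of 6 libraries. In the 3 EWSR1-ERG pools, the embryos carried Tg(14xUAS:GFP-EWSR1-ERG), a transgene for GFP joined to the human fusion EWSR1-ERG of Ewing sarcoma. It was driven in neurons by the Gal4 line Et(E1b:Gal4-VP16)s1101t, and the cross also held the fluorescent reporter Tg(UAS:Kaede) s1999t. The 3 wild-type pools were siblings labelled as controls that do not express EWSR1-ERG; their labels name the same cross, and which of the driver and reporter transgenes they inherited is not given. The labels do not say whether each pool had a clutch of its own, so p-values measure the difference against the spread between these pools. RNA of the transgenes is not among the genes listed, so it could not check the genotype. The comparison asks how red cell genes stood in embryos with the fusion.

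Haem is built in a chain of enzyme steps that begins and ends in the mitochondrion: Alas2 joins glycine to succinyl-CoA in red cells, Urod works on the ring in the cytosol, and Fech inserts iron. The red cell membrane is held to a spectrin skeleton through the anion exchanger band 3 (slc4a1a), protein 4.1 (epb41b) and beta spectrin (sptb). Zebrafish mutants in alas2, urod, fech, slc4a1a, epb41b, sptb, tfr1a and gata1a are known for anaemia, under names such as sauternes, yquem, dracula, retsina, merlot, riesling, chianti and vlad tepes.

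Library totals were 5611197 to 13338802 counts in EWSR1-ERG pools and 4771843 to 5672149 counts in wild-type pools, and the 10 genes together had 2292 to 5974 counts in EWSR1-ERG pools and 1280 to 1440 in wild-type pools. EWSR1-ERG replicate 3 was the deepest library and the only one whose file is named for another sequencing lane. Mitochondrially encoded genes took 2.64% to 2.99% of counts in EWSR1-ERG pools and 3.87% to 4.35% in wild-type pools. Scaling without mitochondrial and globin genes left the same number of the 10 genes past the threshold. That setting hardly changed the fit, with 1308 genes higher and 1733 lower, against 1308 and 1732. It therefore cannot tell what part the mitochondrial share had. Markers of neurons, skeletal muscle and epidermis were also present in every pool, as in whole embryos.

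All of the 10 genes had a positive log2 fold change, and 8 rose in EWSR1-ERG pools by edgeR's quasi-likelihood test at an adjusted p under 0.05. The 8 were alas2, urod, fech, slc4a1a, epb41b, sptb, cahz and nt5c2l1; tfr1a and gata1a did not pass. None was lower, at the unadjusted level of 0.05 included, and DESeq2 and limma-voom also put 0 of them lower. Over all 17557 genes tested, 7.45% were called higher and 9.87% lower. The median log2 fold change of the 10 genes was 0.83, beside 0.0045 over all genes tested. The genes were chosen with results of these data known, so the count describes them and is no independent evidence. In whole embryos, a higher level from more red cells and one from more RNA per red cell cannot be told apart.

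**Figure D1:**
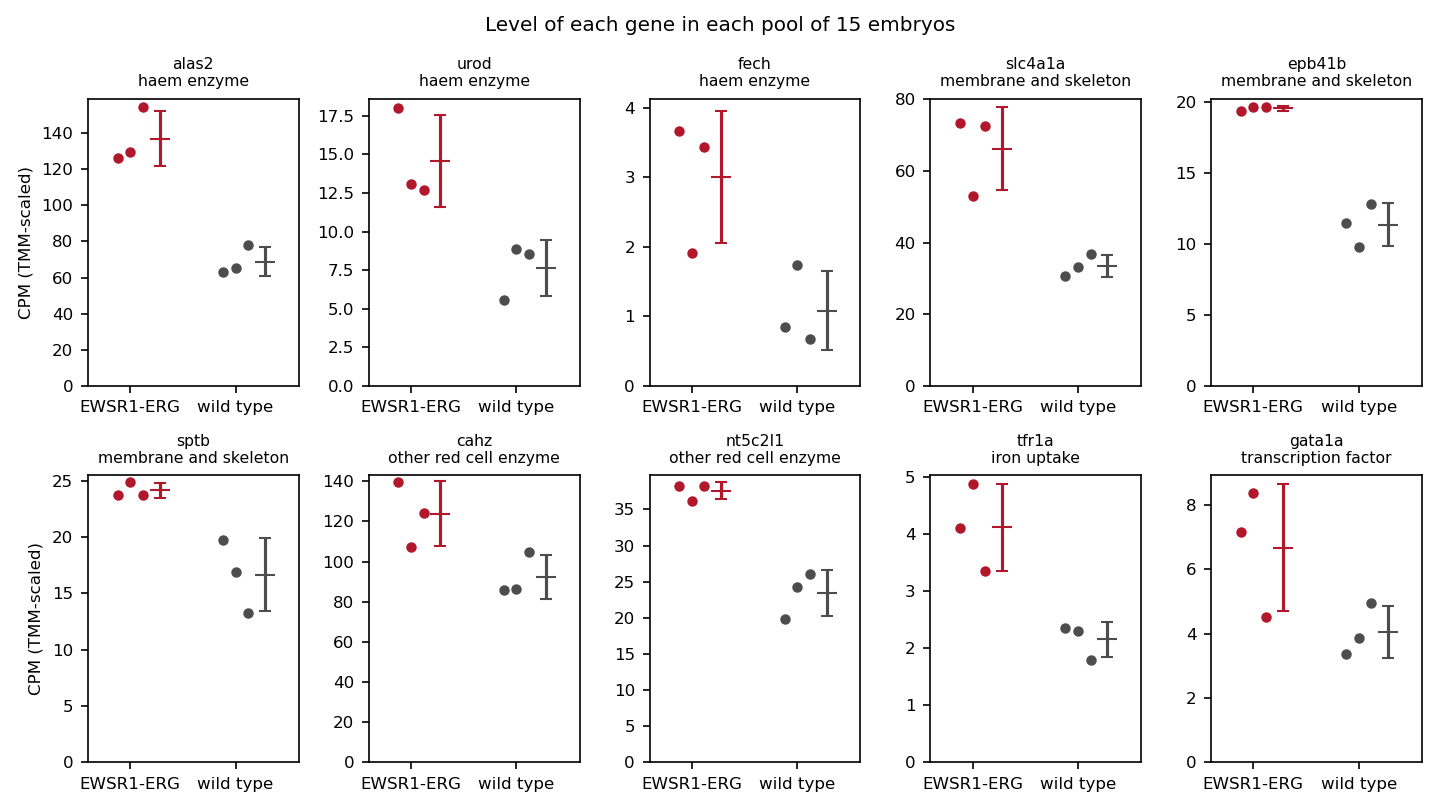
Level of each of the 10 genes in CPM, counts per 1000000 scaled counts (vertical axes from 0), with a point for each pool, EWSR1-ERG at left and wild type at right, and the mean ± SD of 3 pools beside the points. The groups did not overlap in 9 genes; in gata1a the EWSR1-ERG pool at 4.51 CPM lay below the wild-type pool at 4.95 CPM.

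All 3 haem enzyme genes rose in EWSR1-ERG pools, by 1.91 to 2.80-fold. The gene alas2 (ENSDARG00000038643, chromosome 8 of Zv9), for the enzyme that sets the rate of haem synthesis in red cells, stood at 126, 129.7 and 154 CPM (counts per 1000000 scaled counts) in EWSR1-ERG pools, against 63.0, 65.5 and 78.0 CPM in wild-type pools. The lowest EWSR1-ERG pool lay 1.62 times above the highest wild-type pool. The means were 137 ± 15.2 and 68.8 ± 8.03 CPM (SD, n = 3 per group), a 1.99-fold difference (log2 fold change 1.00, SE 0.12, edgeR adjusted p = 5.91e-05). It had the smallest p of the 10 genes.

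The gene urod (ENSDARG00000006818, chromosome 2) encodes uroporphyrinogen decarboxylase. It stood at 18.0, 13.1 and 12.7 CPM in EWSR1-ERG pools, against 5.56, 8.86 and 8.54 CPM in wild-type pools. EWSR1-ERG replicate 1 was the high pool of its group and wild-type replicate 1 the low pool of the other, and the groups did not overlap. It rose 1.91-fold (log2 fold change 0.93, SE 0.22, edgeR adjusted p = 0.00882).

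The gene fech (ENSDARG00000003462, chromosome 21), for ferrochelatase, had the fewest counts of the 10, with 24, 11 and 45 counts in EWSR1-ERG pools, against 5, 9 and 3 counts in wild-type pools. On the scaled level these were 3.66, 1.92 and 3.44 CPM in EWSR1-ERG pools, against 0.843, 1.73 and 0.674 CPM in wild-type pools. The closest pools, EWSR1-ERG replicate 2 and wild-type replicate 2, were near each other. Its log2 fold change of 1.48 (SE 0.42, edgeR adjusted p = 0.0243) was the highest of the 10 and had the largest SE; it was the only one of the 10 that was called and at least 2-fold higher, as were 2.47% of all genes tested. It passed the filter on low counts only through the EWSR1-ERG pools, so it is no support for the others. Among the other 9 genes, 7 were called and the median was 0.79. These 9 still include tfr1a, which also needed the EWSR1-ERG pools to pass.

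Of the 3 membrane and skeleton genes, all rose, and slc4a1a rose most. Its product exchanges chloride for bicarbonate and anchors the skeleton. The gene slc4a1a (ENSDARG00000012881, chromosome 3) stood at 73.3, 52.9 and 72.5 CPM in EWSR1-ERG pools, against 30.7, 33.1 and 36.9 CPM in wild-type pools. EWSR1-ERG replicate 2 was the low pool of its group and still lay 1.44 times above the highest wild-type pool. The log2 fold change was 0.99 (SE 0.14, edgeR adjusted p = 0.000207), or 1.99-fold.

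The gene epb41b (ENSDARG00000029019, chromosome 16) encodes protein 4.1, which joins spectrin to actin and to the membrane. Its 3 EWSR1-ERG pools lay within a narrow band, at 19.4, 19.7 and 19.6 CPM, against 11.5, 9.82 and 12.8 CPM in wild-type pools. The coefficient of variation was 0.907% in EWSR1-ERG pools and 13.2% in wild-type pools. It rose 1.73-fold (log2 fold change 0.79, SE 0.15, edgeR adjusted p = 0.0026).

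The beta spectrin gene sptb (ENSDARG00000030490, chromosome 17) stood at 23.8, 24.9 and 23.8 CPM in EWSR1-ERG pools, against 19.7, 16.9 and 13.3 CPM in wild-type pools. The groups were closer here, with the lowest EWSR1-ERG pool 1.21 times above the highest wild-type pool. It rose 1.44-fold (log2 fold change 0.52, SE 0.15, edgeR adjusted p = 0.0289).

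Both red cell enzyme genes rose, and cahz had the smallest fold change of the 10. The gene cahz (ENSDARG00000011166, chromosome 2), for the red cell carbonic anhydrase that interconverts carbon dioxide and bicarbonate, stood at 139.9, 107 and 124 CPM in EWSR1-ERG pools, against 85.8, 86.5 and 105 CPM in wild-type pools. The groups nearly met, at 107 CPM in EWSR1-ERG replicate 2 and 105 CPM in wild-type replicate 3. It rose 1.34-fold (log2 fold change 0.43, SE 0.12, edgeR adjusted p = 0.0281).

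The gene nt5c2l1 (ENSDARG00000034852, chromosome 10), of the cytosolic 5'-nucleotidases that remove phosphate from nucleotides, stood at 38.2, 36.2 and 38.3 CPM in EWSR1-ERG pools, against 19.9, 24.3 and 26.1 CPM in wild-type pools. The EWSR1-ERG pools were close together and all above the wild-type pools. It rose 1.61-fold (log2 fold change 0.69, SE 0.13, edgeR adjusted p = 0.00185). RefSeq's GRCz12tu annotation places slc2a11l, another protein-coding gene and a long non-coding RNA over nt5c2l1 and a long non-coding RNA over alas2, and the strand setting of the counting is not given. The gene slc2a11l had 5 to 14 counts per library and nt5c2l1 116 to 501. Counts of the other overlapping genes are not given here, and their part in the values of nt5c2l1 and alas2 was not tested.

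Iron uptake was represented by tfr1a (ENSDARG00000058784, chromosome 2), the transferrin receptor through which red cell precursors take up iron. It had 27, 28 and 44 counts in EWSR1-ERG pools, against 14, 12 and 8 counts in wild-type pools. As levels these were 4.11, 4.88 and 3.36 CPM in EWSR1-ERG pools, against 2.36, 2.31 and 1.80 CPM in wild-type pools. It reached the level of the filter on low counts in 3 EWSR1-ERG libraries and 2 wild-type libraries, so it needed the EWSR1-ERG pools to pass. The groups did not overlap, but the log2 fold change of 0.88 (SE 0.30) missed the threshold (edgeR adjusted p = 0.0583, unadjusted p = 0.0108 from edgeR's fit across all genes).

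The transcription factor gene gata1a (ENSDARG00000013477, chromosome 11), whose product turns on most red cell genes, was the only one of the 10 with overlapping groups. It stood at 7.16, 8.36 and 4.51 CPM in EWSR1-ERG pools, against 3.37, 3.85 and 4.95 CPM in wild-type pools. EWSR1-ERG replicate 3 lay within the wild-type range. The log2 fold change was 0.68 (SE 0.29, edgeR adjusted p = 0.124). Over all genes tested, 17.1% had every EWSR1-ERG pool above every wild-type pool, as 9 of the 10 genes had.

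**Figure D2:**
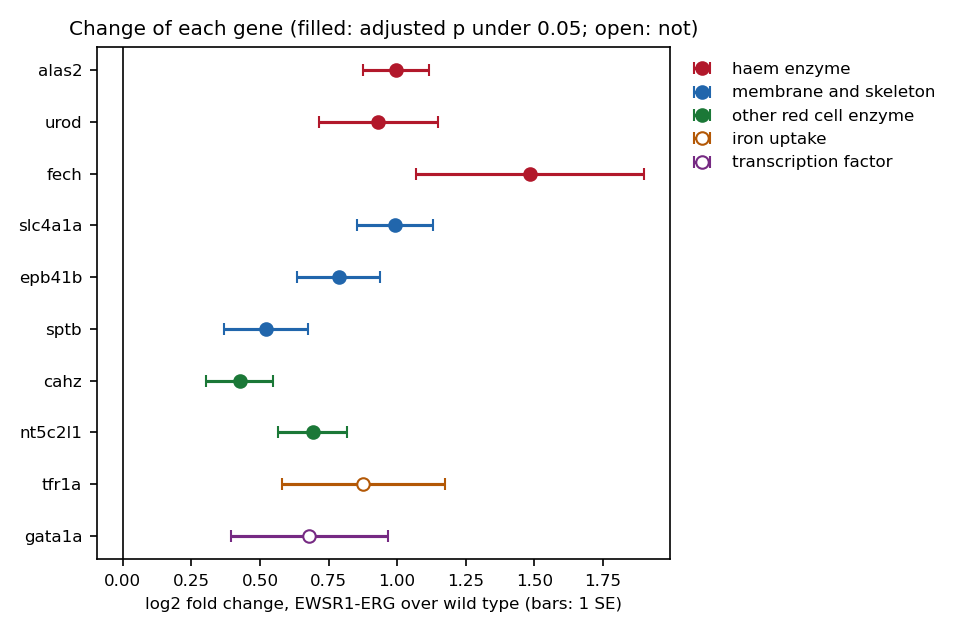
Log2 fold change of each gene, EWSR1-ERG over wild type (horizontal axis), with bars of 1 SE, coloured by role; filled points passed an adjusted p of 0.05. The values run from 0.43 in cahz to 1.48 in fech, and the open points are tfr1a and gata1a.

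Set side by side, the haem enzyme genes were 1.91 to 2.80-fold higher, the membrane genes 1.44 to 1.99-fold, and the other red cell enzymes 1.34 to 1.61-fold. Without fech, which passed the filter only through the EWSR1-ERG pools, the haem enzymes ran from 1.91 to 1.99-fold and shared their range with slc4a1a. The values of tfr1a, 1.84-fold, and gata1a, 1.602-fold, lay inside these ranges although neither passed, and both were counted from few reads. The roles were then compared within each library, by the mean log2 CPM of their genes. The scaling of the library cancels there except in the prior count of 2 added before the log, which weighs most in genes with few counts. Haem enzymes minus other red cell enzymes came to -1.814, -2.003 and -1.824 in EWSR1-ERG pools, against -2.475, -2.111 and -2.589 in wild-type pools. This difference of levels did not overlap between the groups and was 0.51 higher in EWSR1-ERG pools. The gene fech, with few counts and past the filter only through the EWSR1-ERG pools, enters it with the weight of alas2 and urod. The difference without fech was not computed. In the other 9 pairs of roles the groups overlapped. No p was computed for these differences, since they are scores over chosen genes. How often the groups lie apart in such differences of other genes was not computed either.

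Ratios of alas2 to each of the other 9 genes were taken within a library. The alas2 level over the cahz level was 0.903, 1.21 and 1.24 in EWSR1-ERG pools, against 0.735, 0.757 and 0.745 in wild-type pools. Over nt5c2l1 it was 3.30, 3.58 and 4.03 in EWSR1-ERG pools, against 3.17, 2.70 and 2.99 in wild-type pools. In both ratios the groups did not overlap, and in the other 7 they did. Neither ratio was tested, and the share of all gene ratios whose groups lie apart was not computed. Over slc4a1a the ratio averaged 2.10 ± 0.364 in EWSR1-ERG pools and 2.05 ± 0.0697 in wild-type pools (SD, n = 3 per group). These ratios are not per length, so they compare pools and not genes.

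Globin RNA, the main product of red cells, moved by nearly the same amount as the 10 genes. The 14 globin rows took 1.04%, 0.950% and 1.06% of counts in EWSR1-ERG pools, against 0.545%, 0.564% and 0.707% in wild-type pools. Of 10 globin rows tested, 6 were called higher and none lower by edgeR, with a median log2 fold change of 0.84. Over all genes tested, 7.45% were called higher. At an unadjusted p under 0.05 none of the globin rows was lower either, and DESeq2 and limma-voom called 6 higher and 0 lower. Without EWSR1-ERG replicate 3 or wild-type replicate 1 or 2, 5 were called higher, and without wild-type replicate 3, 9 were. One of the 6, hbbe3, passed the filter only through the EWSR1-ERG pools, with 850, 288 and 1584 counts there, against 2, 1 and 4 counts in wild-type pools; of the other 9 rows 5 were called, and their median was 0.825. The 10 genes together had 44.2, 43.0 and 42.1 counts per 1000 globin counts in EWSR1-ERG pools, against 46.6, 45.1 and 37.9 in wild-type pools. The means were 43.1 ± 1.07 and 43.2 ± 4.64 (SD, n = 3 per group), and the EWSR1-ERG pools lay inside the wild-type range. Most of this sum came from alas2, cahz and slc4a1a, so it says little of the other genes. Their means were 13.5, 12.2 and 6.51 in EWSR1-ERG pools, against 11.4, 15.2 and 5.55 in wild-type pools.

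Set against globin counts gene by gene, the groups overlapped in 8 of the 10 genes and lay apart in alas2 and cahz. Counts of alas2 per 1000 globin counts were 12.3, 14.0 and 14.2 in EWSR1-ERG pools, against 12.1, 11.7 and 10.3 in wild-type pools. Counts of cahz were 13.6, 11.6 and 11.4 in EWSR1-ERG pools, against 16.5, 15.4 and 13.8 in wild-type pools. In EWSR1-ERG pools alas2 was thus higher and cahz lower by this measure; neither was tested, and the share of all genes whose groups lie apart per globin count was not computed. Counts of gata1a averaged 0.671 ± 0.243 in EWSR1-ERG pools and 0.662 ± 0.0223 in wild-type pools (SD, n = 3 per group). The near-identical globin copies on chromosome 3 can share reads, and how such reads were counted is not given.

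**Figure D3:**
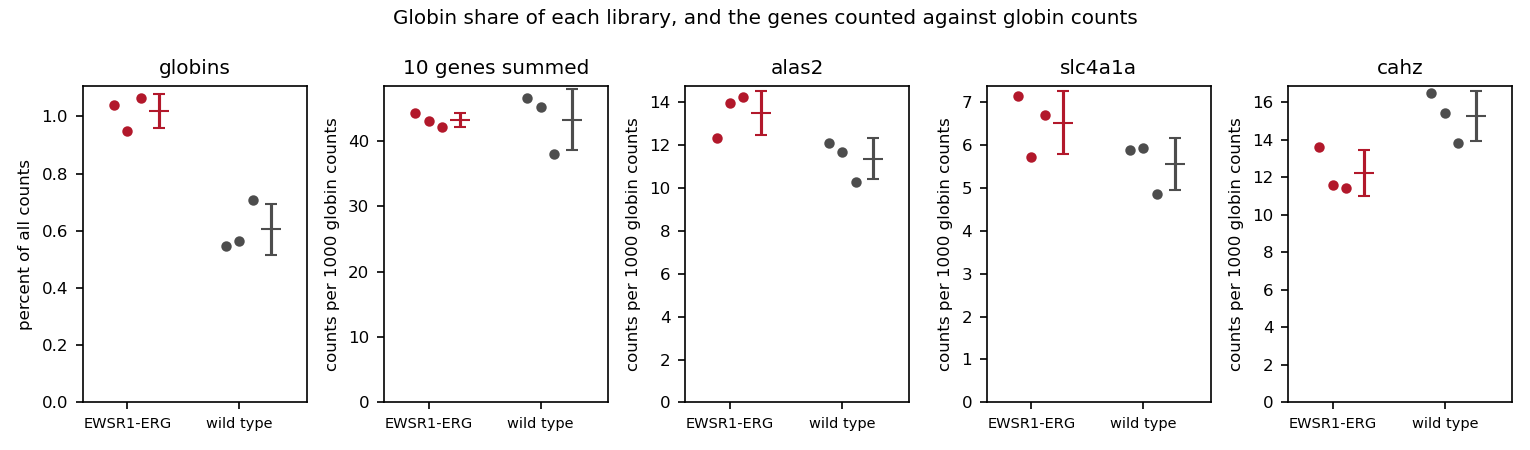
Left, the share of all counts taken by 14 globin rows in each pool; then counts per 1000 globin counts of the 10 genes summed, of alas2, of slc4a1a and of cahz (vertical axes from 0), with EWSR1-ERG at left and wild type at right of each plot and the mean ± SD of 3 pools beside the points. The globin share did not overlap between the groups, while the summed genes lay at 42.1 to 44.2 in EWSR1-ERG pools and 37.9 to 46.6 in wild-type pools.

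The rest of the haem pathway was mostly not called. Beside the counts of this and the following lists stand the shares over all genes tested, 7.45% called higher and 9.87% lower by edgeR. Of 21 other genes tested for haem synthesis and mitochondrial import, 2 rose and 0 fell (median log2 fold change 0.093), while the remaining 19 missed the threshold. At the unadjusted level of 0.05 there were 5, of which 4 were higher, and DESeq2 and limma-voom likewise called 2 higher and 0 lower. The gene slc25a38a, for the carrier that brings glycine into the mitochondrion for the first step of haem synthesis, stood at 11.9, 9.23 and 8.56 CPM in EWSR1-ERG pools, against 1.35, 0.770 and 1.80 CPM in wild-type pools (log2 fold change 2.91, SE 0.31, edgeR adjusted p = 1.63e-05). It had 243 counts in total in EWSR1-ERG pools and 20 in wild-type pools, and passed the filter only through the EWSR1-ERG pools. Its paralogue slc25a38b, named after its value was seen, was not called (log2 fold change 0.23, edgeR adjusted p = 0.377). It stood at 15.9 ± 0.583 CPM in EWSR1-ERG pools and 13.5 ± 2.51 CPM in wild-type pools (SD, n = 3 per group). The gene cpox, for the oxidase that follows Urod, rose by 0.68 on the log2 scale (SE 0.21, edgeR adjusted p = 0.0429); its call ended without EWSR1-ERG replicate 1 (0.49), wild-type replicate 2 (0.75) or wild-type replicate 3 (0.48).

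Other enzymes of the chain did not pass, and their log2 fold changes, given after they were seen, were 0.045 for alad (adjusted p = 0.905), 0.34 for hmbsa (0.25), 0.44 for hmbsb (0.126), 0.15 for uros (0.682) and 0.46 for ppox (0.159), all adjusted p from edgeR. Of these, hmbsb passed without EWSR1-ERG replicate 2 (0.58). The housekeeping form of the first enzyme, alas1, stood at 107 ± 8.90 CPM in EWSR1-ERG pools and 119.99 ± 4.59 CPM in wild-type pools (SD, n = 3 per group; log2 fold change -0.17, edgeR adjusted p = 0.309). The difference between alas2 and alas1 was not tested. In haem breakdown and scavenging, 2 of 9 genes rose and 1 fell (median 0.008); DESeq2 called 1 and 1, and the replicate block left 1 and 1. The haem oxygenase gene hmox1 rose to 27.7 ± 4.69 CPM in EWSR1-ERG pools, against 13.5 ± 3.00 CPM in wild-type pools (SD, n = 3 per group; log2 fold change 1.04, edgeR adjusted p = 0.00109), and kept its call without any 1 pool. The biliverdin reductase gene blvrb rose by 0.43 (edgeR adjusted p = 0.0295), a call that ended without EWSR1-ERG replicate 1 (0.36) or 3 (0.43) or wild-type replicate 1 (0.38) or 2 (0.40). The haptoglobin gene hp fell by 0.60 (edgeR adjusted p = 0.0171), a call that ended without EWSR1-ERG replicate 2 (-0.49) or wild-type replicate 2 (-0.54) or 3 (-0.56).

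Among 17 other membrane and skeleton genes, 3 rose and 2 fell, and 12 missed the threshold (median -0.012). DESeq2 called 2 higher and 2 lower, and limma-voom 3 and 2. The water channel gene aqp1a.1 rose to 176 ± 14.0 CPM in EWSR1-ERG pools, against 111 ± 16.5 CPM in wild-type pools (SD, n = 3 per group; log2 fold change 0.66, edgeR adjusted p = 0.00182). The Rh gene rhd rose by 1.49 (edgeR adjusted p = 0.00466), with 120 counts in total in EWSR1-ERG pools and 26 in wild-type pools. It reached the level of the filter on low counts in 3 EWSR1-ERG libraries and 1 wild-type library, so it needed the EWSR1-ERG pools to pass. The mechanosensitive channel gene piezo1 rose by 0.48 (edgeR adjusted p = 0.034). The glucose transporter gene slc2a1a fell by 3.24 (edgeR adjusted p = 0.000427), to 10 counts in total in EWSR1-ERG pools, against 62 in wild-type pools, and passed the filter only through the wild-type pools; tmod4, a tropomodulin gene of muscle, fell by 0.51 (edgeR adjusted p = 0.0112). The call of piezo1 ended without EWSR1-ERG replicate 1 (0.39) or 2 (0.52) or wild-type replicate 1 (0.53), 2 (0.43) or 3 (0.48), and that of tmod4 without wild-type replicate 2 (-0.54). The Rh-associated glycoprotein gene rhag, named after its value was seen, stood at 241, 294 and 273 CPM in EWSR1-ERG pools, against 230.2, 249 and 284 CPM in wild-type pools, and its groups overlapped (log2 fold change 0.082, edgeR adjusted p = 0.698).

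Of 14 other genes of iron handling, 4 rose and 2 fell, and 8 missed the threshold (median 0.18). DESeq2 called 1 higher and 1 lower, limma-voom 2 and 2, and the replicate block left 1 and 2. The transferrin gene tfa, whose liver-made product carries iron to the transferrin receptor, fell to 180.3 ± 37.0 CPM in EWSR1-ERG pools, against 1064 ± 47.1 CPM in wild-type pools (SD, n = 3 per group; log2 fold change -2.56, edgeR adjusted p = 4.45e-08). The ceruloplasmin gene cp, for a plasma copper protein that oxidises iron, rose by 1.75 (edgeR adjusted p = 0.000225). The iron transporter gene slc11a2 (0.53, edgeR adjusted p = 0.0245), the ferrireductase gene steap3 (1.18, edgeR adjusted p = 0.0462) and the hemojuvelin gene, listed as hfe2 (0.50, edgeR adjusted p = 0.0442), rose as well. The ferritin gene fth1b fell by 0.52 (edgeR adjusted p = 0.0322). The other transferrin receptor gene, tfr1b, named after its values were seen, stood on 2 of the 14 rows. Neither row was called (0.09 and -0.42, edgeR adjusted p = 0.77 and 0.158). The gene steap3 reached the level of the filter on low counts in 3 EWSR1-ERG libraries and 1 wild-type library, so it needed the EWSR1-ERG pools to pass. The calls of slc11a2, steap3, hfe2 and fth1b depended on single pools. That of slc11a2 ended without EWSR1-ERG replicate 1 (0.47) or 2 (0.53) or wild-type replicate 1 (0.51) or 2 (0.49). That of steap3 ended without EWSR1-ERG replicate 1 (1.18) or 3 (0.86) or wild-type replicate 1 (0.99), 2 (1.36) or 3 (1.204). That of hfe2 ended without EWSR1-ERG replicate 1 (0.42) or 2 (0.45) or wild-type replicate 1 (0.54), 2 (0.49) or 3 (0.49). That of fth1b ended without EWSR1-ERG replicate 1 (-0.41) or wild-type replicate 2 (-0.52) or 3 (-0.39).

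No gene was called among 17 other erythroid transcription factor and signalling genes by edgeR, DESeq2 or limma-voom, and the median was -0.12. Only 4 of the 17 reached an unadjusted p of 0.05, and 1 of these was higher. Some transcription regulator genes of red cells from this list, named after their values were seen, had log2 fold changes of 0.069 for tal1 (adjusted p = 0.782), 0.21 for lmo2 (0.502) and 0.057 for nfe2 (0.822), all adjusted p from edgeR. These values were positive, as were those of 7 of the 17 genes. The regulator genes klf3 and gata2a, also named after they were seen, leaned lower (-0.28 and -0.37, edgeR adjusted p = 0.0951 and 0.129). The difference between these genes and the 10 was not tested.

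Of 18 other red cell genes, 5 rose and 2 fell, and 11 missed the threshold (median -0.067). DESeq2 called 2 higher and 2 lower, limma-voom 4 and 2, and the replicate block left 2 and 3. The 4 with the smallest p among those that rose were znfl2a, a zinc finger gene (1.05, edgeR adjusted p = 0.00416), tspo, for a mitochondrial membrane protein (0.70, edgeR adjusted p = 0.00821), nmt1b (0.62, edgeR adjusted p = 0.0423) and the pyruvate kinase gene pklr, listed as CABZ01066502.1 (0.43, edgeR adjusted p = 0.0433). The fifth, nt5c3a, of the pyrimidine 5'-nucleotidases, lay outside the rule for naming (0.36, edgeR adjusted p = 0.0446). The purine nucleoside phosphorylase gene pnp4b fell by 1.51 (edgeR adjusted p = 0.000939) and the catalase gene cat by 0.58 (edgeR adjusted p = 0.00842). The call of tspo ended without wild-type replicate 1 (0.55) or 2 (0.64) and that of cat without wild-type replicate 2 (-0.58). That of nmt1b ended without EWSR1-ERG replicate 3 (0.50) or wild-type replicate 1 (0.56) or 2 (0.50), and that of pklr without EWSR1-ERG replicate 1 (0.28) or 2 (0.49) or wild-type replicate 1 (0.40), 2 (0.49) or 3 (0.40). That of nt5c3a ended without EWSR1-ERG replicate 1 (0.30) or 3 (0.36) or wild-type replicate 1 (0.27) or 2 (0.37). The hemogen gene, listed as si:dkey-25o16.2 and named after its value was seen, stood at 23.0 ± 1.26 CPM in EWSR1-ERG pools and 23.4 ± 0.967 CPM in wild-type pools (SD, n = 3 per group), and the peroxiredoxin gene prdx2 at 393 ± 13.8 CPM in EWSR1-ERG pools and 365 ± 36.0 CPM in wild-type pools; neither passed (edgeR adjusted p = 0.917 and 0.580).

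**Figure D4:**
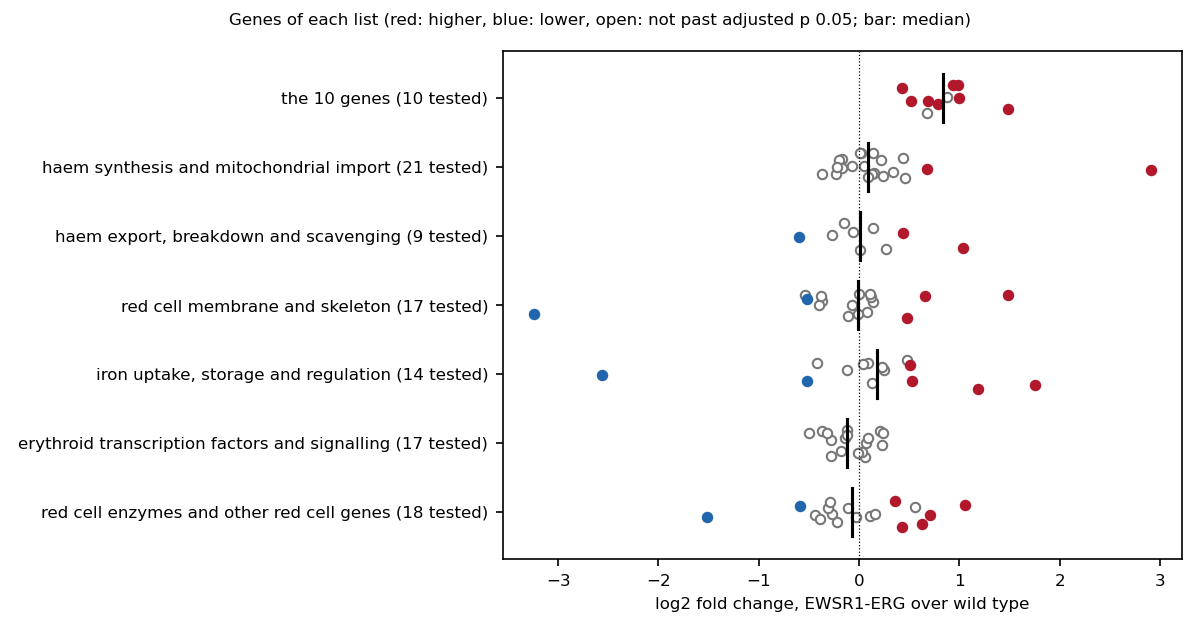
Log2 fold change, EWSR1-ERG over wild type (horizontal axis), of the 10 genes and of the tested genes of 6 related lists, with a vertical bar at each median; vertical scatter within a row has no meaning. The median of the 10 genes is 0.83 and those of the lists run from -0.12 to 0.18.

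Markers of other cell types were counted in the same libraries, by edgeR. Of 12 myeloid markers, 10 rose and 0 fell, with 9 to 11 higher when a pool was left out, and their summed level was 288 to 398 CPM in EWSR1-ERG pools and 112 to 126.9 CPM in wild-type pools. Of these markers, marco, csf1ra and ncf1 reached the filter's level in 3 EWSR1-ERG libraries and 2 wild-type libraries, so they needed the EWSR1-ERG pools to pass. Of 15 endothelial markers, 5 rose and 1 fell (308 to 365 CPM in EWSR1-ERG pools, 224 to 227 CPM in wild-type pools); without any 1 of the wild-type pools 3 were higher, and the lower call ended without EWSR1-ERG replicate 1 or 2 or wild-type replicate 1 or 3. Of 6 thrombocyte markers 3 rose (257 to 302 CPM in EWSR1-ERG pools, 201 to 214 CPM in wild-type pools), among them fermt3b, which passed the filter only through the EWSR1-ERG pools. This count was 1 with DESeq2, with the replicate block, and without EWSR1-ERG replicate 3 or wild-type replicate 1 or 3. The thrombocyte markers itga2b and mpl had too few counts to be tested and did not lean higher. They had 20 and 9 counts in total in EWSR1-ERG pools, against 14 and 11 in wild-type pools. With no filter on low counts they stood at -0.19 and -0.99 on the log2 scale (edgeR adjusted p = 0.90 and 0.49). Among 5 blood progenitor markers, 2 rose and 1 fell (67.1 to 75.2 CPM in EWSR1-ERG pools, 56.4 to 65.9 CPM in wild-type pools). The lower call ended with the replicate block and without EWSR1-ERG replicate 3 or wild-type replicate 1. The gene called lower was cd34, listed as si:dkey-261h17.1 (log2 fold change -0.56, edgeR adjusted p = 0.0278). The 2 that rose were spi1b (log2 fold change 1.504, edgeR adjusted p = 0.000103) and ptprc (1.51, edgeR adjusted p = 0.00159). Whether they rose apart from the myeloid markers was not tested. Both runx1 rows, gata2b and spi2 had too few counts to be tested. With no filter on low counts the runx1 rows stood at 2.243 and 0.217, gata2b at -0.507 and spi2 at -0.384. Their edgeR adjusted p there ran from 0.311 to 0.956. None of 7 neuronal markers rose and 3 fell (718 to 999 CPM in EWSR1-ERG pools, 1081 to 1353 CPM in wild-type pools), with 1 lower without wild-type replicate 1 or 2. Of 7 epidermal markers 3 rose, but 0 without wild-type replicate 1 or 2. Of 8 muscle markers 1 rose, but 0 without EWSR1-ERG replicate 2 or 3 or wild-type replicate 1 or 2, and 2 without EWSR1-ERG replicate 1 or wild-type replicate 3. The globin gene hbaa2, an adult form, was at 0 counts in every library. A summed level of muscle markers ran from 45540 to 61210 CPM in EWSR1-ERG pools and 51610 to 60970 CPM in wild-type pools, and that of epidermal markers from 20870 to 21320 CPM in EWSR1-ERG pools and 16640 to 25490 CPM in wild-type pools. The part of mitochondrial RNA and of these cell types in the values of the 10 genes was not tested.

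Within the groups, the 10 genes differed in which pool was highest. The highest EWSR1-ERG pool was replicate 1 for 4 genes, replicate 2 for 4 and replicate 3 for 2. Among the wild-type pools, replicate 3 was the highest for 6 of the 10 genes. Over the 6 libraries, each gene's log2 CPM correlated with the mean of the other 9 at Pearson r from 0.731 in gata1a to 0.964 in nt5c2l1; this describes 6 libraries in 2 separated groups. In deviations from the group means, r ran from -0.794 in sptb to 0.925 in urod.

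The genes most like the mean of the 10 over the 6 libraries, among 10345 others of at least 10 CPM and globins left out, were rps27.2 (r = 0.999), gcga (0.998), gfm1 (0.998), mfap4 (0.997) and slu7 (0.996). They encode a ribosomal protein, a glucagon, a mitochondrial translation factor, a macrophage protein and a splicing factor, and 906 genes, or 8.76%, had r of at least 0.9. In deviations from the group means the closest were BX005175.1 (r = 0.999), dip2ba (0.999), ccnb3 (0.998), ppifb (0.998) and emc6 (0.997), none of them called in the comparison (edgeR adjusted p from 0.123 to 0.941). The points share libraries and depth, and r has no p here.

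Calls of 4 of the 8 genes depended on single pools. Those of alas2, slc4a1a, epb41b and nt5c2l1 held whichever pool was left out. That of urod ended without wild-type replicate 1 (0.73, edgeR adjusted p = 0.0606). That of fech ended without EWSR1-ERG replicate 3 (1.36), wild-type replicate 1 (1.302) or wild-type replicate 3 (1.284), that of sptb without EWSR1-ERG replicate 2 (0.51) or 3 (0.54) or wild-type replicate 2 (0.53) or 3 (0.40), and that of cahz without EWSR1-ERG replicate 1 (0.34) or 3 (0.43) or wild-type replicate 1 (0.37) or 2 (0.38). Without wild-type replicate 1, 5 of the 10 genes were called.

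By the file names alone, EWSR1-ERG replicate 3 is the library of another lane. Leaving it out thus also gives the comparison of libraries whose files are named for 1 lane. There 7 of the 10 genes were called: tfr1a (1.04, edgeR adjusted p = 0.0448) and gata1a (0.95, edgeR adjusted p = 0.028) passed, while fech, sptb and cahz did not. All of the 10 genes kept a positive value in each alternative in which they were fitted, with alas2 from 0.899 to 1.098 and cahz from 0.34 to 0.53.

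**Figure D5:**
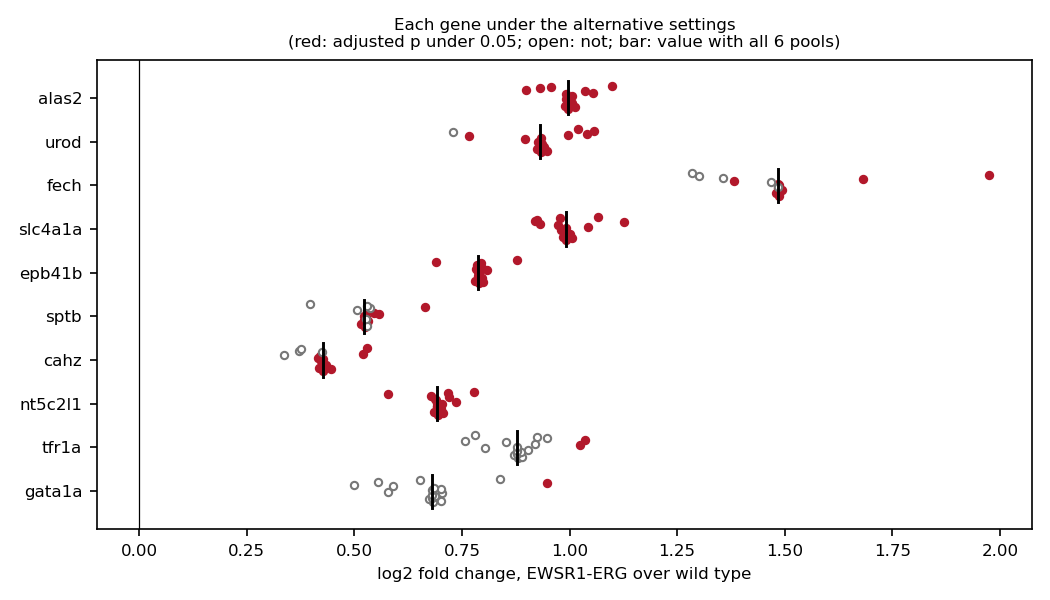
Log2 fold change, EWSR1-ERG over wild type (horizontal axis), of each gene under 17 alternative settings (16 for fech), with red points past an adjusted p of 0.05, open points not past it and a bar at the value with all 6 pools; vertical scatter within a row only separates the settings. No point lies below 0, and fech spreads widest, from 1.28 to 1.98.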

How the data were processed

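The deposited tables list reads per Ensembl gene as whole counts; the authors' last line in each file is a size factor that is not whole, so the deposited columns were handled as estimated counts, and rounding changed no gene. Per the submitters' processing notes, Bowtie2, SAMtools, DESeq and the Zv9 build were used; tool versions, the way of counting and its strandedness remain not given in the sources used here. Of each file, 2 lines without a gene were dropped, and the size factor was not applied. Chromosomes are those of the files, gene overlaps were read from RefSeq's GRCz12tu annotation, and sequences were not used here.

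Counts of 6 libraries were fitted with edgeR 4.0.16 (R 4.3.3): filterByExpr with a minimum count of 10 and total of 15, TMM factors (0.932 to 1.05), and the robust quasi-likelihood F test without covariates, adjusted by Benjamini-Hochberg over 17557 genes at 0.05. The SE is the absolute log2 fold change over the square root of F. CPM are relative to TMM-scaled totals. Log2 CPM used a prior count of 2. The fit was tested on simulated data. A count of 0 would allow up to 3 counts, or 0.225 to 0.629 CPM, counting error only.

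The 10 genes and 14 lists (201 entries, 185 matched by symbol, gene name table or RefSeq name) were chosen with earlier results of these data known. Named from related lists were up to 4 called genes per direction by smallest p (2 for haem breakdown), and the genes whose levels over the libraries were most like the 10. Globins and marker lists of other cell types are given as counts and summed levels. From these lists hbbe3, hbaa2, fermt3b, itga2b, mpl, runx1, gata2b, spi2, marco, csf1ra and ncf1 are named for their counts or the filter, after these were seen. The called progenitor markers spi1b, ptprc and cd34 are named as well. Alternatives were other scalings, filters and tests (DESeq2 1.42.0, limma-voom 3.58.1), thinning, a replicate block and leaving out each pool. The main fit did not pair pools by replicate number, as the labels give no shared clutch, batch or day for equal numbers.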

Additional observations from a re-analysis of the deposited data

How the results depend on the processing

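The number of the 10 genes called higher stayed within 1.5 times of 8 in each alternative except without wild-type replicate 1, which gave 5; leaving out each pool gave 5 to 7, and DESeq2 gave 6. None was called lower in any of them. Over all genes, leaving out each pool gave 645 to 1334 higher and 981 to 1669 lower, against 1308 and 1732 with all pools; the lowest were those without wild-type replicate 1 (718 and 1135) and replicate 2 (645 and 981). The call of fech ended with DESeq2 (adjusted p = 0.0587) and with the replicate block (adjusted p = 0.0569), and that of sptb with library totals alone (0.0512) and DESeq2 (0.0568); the cause was not tested. With libraries thinned to the smallest, fech had too few counts to be fitted, and tfr1a passed (1.02, adjusted p = 0.0446). With no filter on low counts 8 of the 10 were called. Deviations of pools with the same replicate number correlated at -0.123, 0.0881 and -0.0213, within the range of -0.197 to 0.174 of pools with unlike numbers. So few values cannot tell whether pools shared a clutch or day. With the replicate block 7 of the 10 genes were called, and 1067 genes higher and 1481 lower. Counts limit fech, tfr1a and gata1a, each under 100 wild-type counts in total. Among the 10 genes and the list genes followed over the alternatives, no called gene turned direction in any alternative run. The other genes called were not followed. Of genes named though not called, some values near 0 turned sign when a pool was left out. Among them were alad (-0.14 to 0.16), uros (-0.11 to 0.31), tal1 (-0.01 to 0.11), nfe2 (-0.078 to 0.17) and the hemogen gene si:dkey-25o16.2 (-0.069 to 0.012).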

Other observations

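Several red cell genes of the related lists had too few counts to be tested, and their counts, named after they were seen, are given with no test in the filtered fit. The gene gfi1b, for a transcription repressor of red cell and platelet precursors, had 15, 8 and 23 counts in EWSR1-ERG pools, against 1, 7 and 1 counts in wild-type pools. Per 1000000 counts of the unscaled totals, that is 1.81 over the summed EWSR1-ERG pools and 0.577 over the summed wild-type pools. With no filter on low counts gfi1b stood at 1.63 (edgeR adjusted p = 0.0429). It was the only 1 called of the 23 genes of its list fitted there, and that fit called 1466 of 26925 genes higher. The pools of replicate 2, at 8 counts with EWSR1-ERG and 7 in wild type, were near each other. The gene slc25a37, for the mitoferrin that carries iron into the mitochondrion for Fech, had 7, 4 and 10 counts in EWSR1-ERG pools, against 2, 1 and 3 counts in wild-type pools; with no filter it stood at 1.08 (edgeR adjusted p = 0.373). The erythropoietin receptor gene epor (ENSDARG00000043609) had 4, 7 and 14 counts in EWSR1-ERG pools, against 1, 3 and 2 counts in wild-type pools, at 1.31 with no filter (edgeR adjusted p = 0.229). The gene klf1, listed as klfd, for a transcription factor of red cells, had 10, 8 and 23 counts in EWSR1-ERG pools, against 9, 2 and 7 counts in wild-type pools, at 0.47 with no filter (edgeR adjusted p = 0.618). The second enzyme of haem breakdown, encoded by blvra, had 43 counts in total in EWSR1-ERG pools and 11 in wild-type pools (1.26 with no filter, edgeR adjusted p = 0.0954).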
